A study of Mus musculus with 15 samples.

Results

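The genes described are FoxO and autophagy genes measured in blood-forming cells of young and old mice: the transcription factor gene Foxo1, the autophagosome formation genes Becn1, Atg5, Atg7 and Atg12, the autophagosome membrane genes Map1lc3b and Gabarapl1, and the cargo receptor gene Sqstm1. They were chosen by symbol, and each is represented by the brightest probe set annotated with that symbol alone. Of the 9 genes named, 8 were analysed among 19296 genes on the arrays; Foxo3 is not analysed here. Expression was measured on 15 Affymetrix arrays of cells sorted from the bone marrow of C57Bl/6 mice, all labelled male. The arrays comprised 5 of young haematopoietic stem cells (HSC) and 4 of young granulocyte/macrophage progenitors (GMP) from mice of 6 to 12 weeks, and 3 of old HSC and 3 of old GMP from mice of 22 to 30 months. HSC were gated as Lin-, c-Kit+, Sca-1+, Flk2-, CD48- and CD150+, and GMP as Lin-, c-Kit+, Sca-1-, CD34+ and Fc gamma receptor+. Cells were double sorted for purity, and the RNA was amplified before hybridisation. Nothing in the labels tells if cells of several mice were pooled for an array, so p-values measure the spread between arrays, which may be technical.

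FoxO proteins are transcription factors that growth factor signalling through PI3-kinase and AKT keeps out of the nucleus. When that signal is low they enter the nucleus and activate genes of stress resistance, cell cycle arrest and autophagy, and in HSC they are known for keeping the cells quiescent and protecting them from oxidative stress. Autophagy encloses cytoplasm in a double membrane, the autophagosome, and delivers it to lysosomes. Beclin 1, the product of Becn1, belongs to the class III PI3-kinase complex that starts the membrane. ATG7 is the activating enzyme of both ubiquitin-like conjugation systems, one of which joins ATG12 to ATG5. The ATG12-ATG5 conjugate promotes the attachment of LC3B (Map1lc3b) and GABARAPL1 to the membrane, where receptors such as p62 (Sqstm1) bind them with their cargo. HSC are known to need autophagy for their maintenance.

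The promoters of 6 of the 8 analysed genes were taken from the RefSeq promoter table (build GRCm38.p6), each with 250 bases before and 50 after the transcript start that the table uses. Becn1 had no entry there, and the promoter of Atg12 is not reported here. Both strands were searched for GTAAACA, the FoxO consensus, TGACNNNGC, the core of the element bound by the oxidative stress factor NRF2, TCACGTG, the core of the element bound by the lysosome regulator TFEB, and CACGTG, the E-box contained in it. TAAACA, the forkhead core contained in the FoxO consensus, was added after the sequences had been read. The promoters of Gabarapl1 and Map1lc3b are shown because these Atg8 family genes rose together in HSC against GMP and that of Atg5 because it fell with age in HSC. Capitals mark the matches.
Gabarapl1 (chr6:129532942-129533241, plus strand): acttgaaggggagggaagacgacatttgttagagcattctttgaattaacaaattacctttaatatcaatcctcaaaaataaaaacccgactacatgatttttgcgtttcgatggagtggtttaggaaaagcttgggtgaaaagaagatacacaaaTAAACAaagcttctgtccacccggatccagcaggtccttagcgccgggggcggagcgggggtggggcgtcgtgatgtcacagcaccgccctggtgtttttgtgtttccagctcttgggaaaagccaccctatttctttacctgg
Map1lc3b (chr8:121590188-121590487, plus strand): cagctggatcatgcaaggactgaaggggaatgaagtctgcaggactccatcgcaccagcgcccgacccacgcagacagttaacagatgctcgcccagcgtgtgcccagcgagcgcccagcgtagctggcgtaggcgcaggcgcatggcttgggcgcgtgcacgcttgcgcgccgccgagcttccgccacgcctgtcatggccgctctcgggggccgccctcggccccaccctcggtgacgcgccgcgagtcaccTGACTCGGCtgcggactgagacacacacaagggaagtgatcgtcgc
Atg5 (chr10:44268089-44268388, plus strand): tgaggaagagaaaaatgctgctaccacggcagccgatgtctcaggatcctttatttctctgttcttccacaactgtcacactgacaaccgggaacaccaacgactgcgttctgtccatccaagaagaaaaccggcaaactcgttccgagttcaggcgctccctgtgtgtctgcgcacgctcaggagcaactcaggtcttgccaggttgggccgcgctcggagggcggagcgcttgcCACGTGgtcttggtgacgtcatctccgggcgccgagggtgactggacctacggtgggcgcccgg
The FoxO consensus was in 0 of the 6 promoters, against 3.65% of 32851 promoters in the table. The Gabarapl1 window holds TAAACA once, 94 bases before the start, a match found in 13.4% of all promoters. The Map1lc3b window holds the NRF2 core as TGACTCGGC, beginning 5 bases into the transcript, and 12.4% of promoters hold that motif. The Atg5 window holds an E-box beginning 14 bases before the start, as do 7.15% of promoters. The Atg7 window, which holds TCACGTG as do 3.77% of promoters, lies at a start well inside the annotated gene and not at the gene's own start, so it is not shown. The windows of Foxo1 and Sqstm1 held none of these motifs. A match or its absence in these windows says nothing about binding.

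Several arrays stood apart. Xist, the RNA of the inactive X chromosome, had log2 levels of 5.46 to 5.84 in the 6 old samples but of 8.92 to 11.51 in 7 of the 9 young samples; young HSC replicate 1 and young GMP replicate 1 were the exceptions. All samples are labelled male, and the mean of the Y-linked genes was 8.45 to 8.80 log2 in the old samples. Of the 7 young samples with high Xist, 5 also had Y-linked means of 7.12 to 8.47, so that they carried both signals, whereas young HSC replicate 4 and young GMP replicate 4 had 4.94 and 5.20. Young HSC replicate 4 was the lowest of its group for 7 of the 8 genes, and young GMP replicate 4 for 5 of 8. The interquartile range of these arrays was 2.21 and 2.13 log2, against 2.46 to 2.69 and 2.43 to 2.60 on the other young HSC and GMP arrays, 1.96 to 2.33 on old HSC and 2.27 to 2.48 on old GMP. The 6 measured HSC markers averaged 9.43 to 10.07 log2 in young and 9.53 to 9.99 in old HSC and 6.84 to 7.26 in GMP, and the 8 GMP markers averaged 10.92 to 11.47 in GMP and 7.11 to 7.41 in HSC.

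The cell type comparison asked which of these genes differ between stem cells and committed myeloid progenitors. In young mice Gabarapl1, Map1lc3b, Foxo1 and Sqstm1 were higher in HSC than in GMP, and Atg12 was lower, so that 5 of the 8 genes were called (limma, adjusted p under 0.05). Of all 19296 genes 24.6% were called, 13.6% higher and 10.9% lower in young HSC. For 3 of the 8 genes, Gabarapl1, Foxo1 and Atg12, the young groups did not overlap, as for 21.3% of all genes. Atg5, Atg7 and Becn1 were not called. In old mice Gabarapl1, Map1lc3b and Foxo1 were again higher in HSC and Atg12 lower, and Atg5 was lower in old HSC, whereas Sqstm1 was not called; 22.2% of all genes were called, 9.25% higher and 13% lower. The 5 genes called in old mice did not overlap between the cell types, as for 34.7% of all genes.

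**Figure D1:**
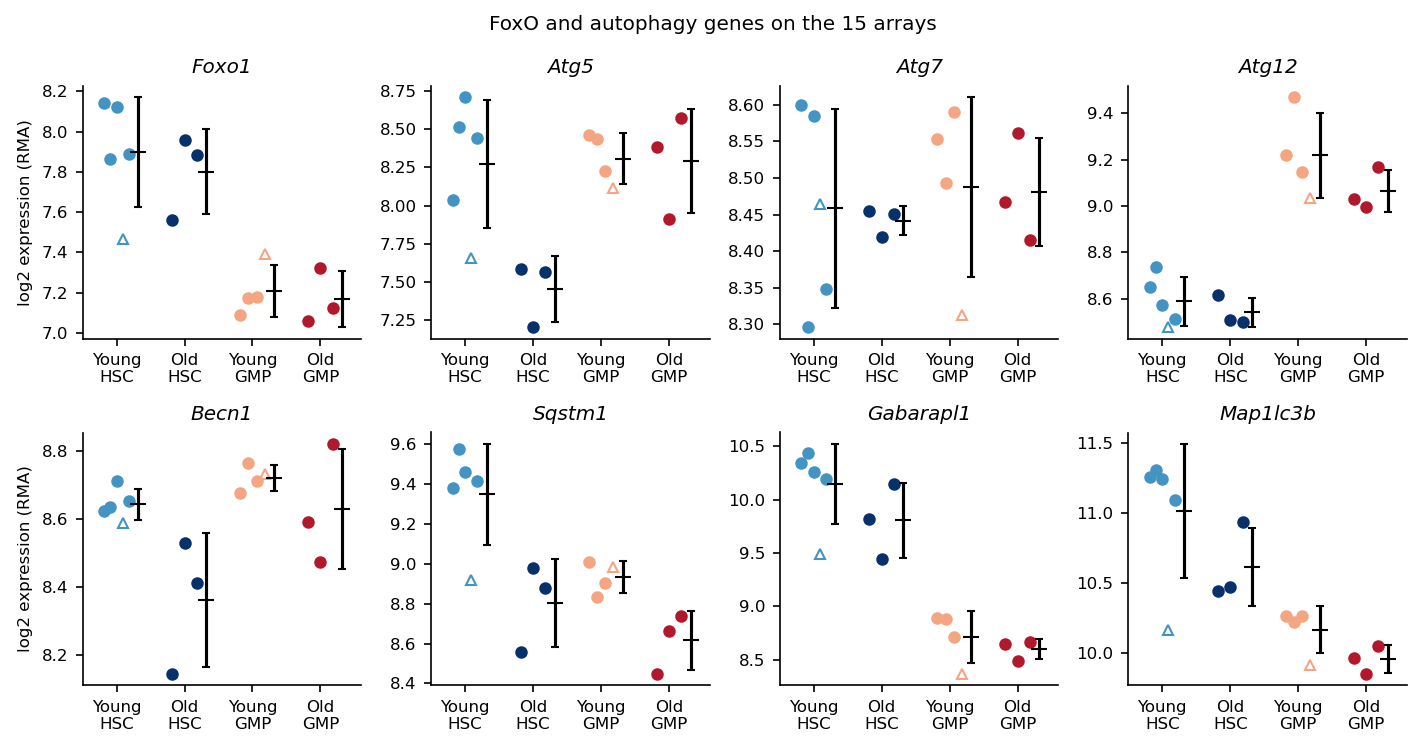
Log2 expression (vertical axis, a separate range in each panel) of the 8 genes on every array, grouped by age and cell type (horizontal axis); open triangles are the replicate 4 arrays and black marks show the mean with SD of 3 to 5 arrays. Every HSC value of Gabarapl1, from 9.44 to 10.44 log2, lies above every GMP value, from 8.37 to 8.89, and young HSC replicate 4 is the lowest young HSC array for all panels but that of Atg7.

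Foxo1 is the first of the regulators. On the young HSC arrays, replicates 1 to 5, Foxo1 stood at 8.14, 7.86, 8.12, 7.47 and 7.89 log2, and on the old HSC arrays at 7.56, 7.96 and 7.88. On the young GMP arrays it stood at 7.09, 7.17, 7.18 and 7.39, and on the old GMP arrays at 7.06, 7.32 and 7.12. Every HSC array therefore lay above every GMP array, while young and old overlapped within each cell type. The difference between HSC and GMP was 0.69 ± 0.13 log2 (SE; 5 and 4 arrays) in young mice, or 1.61-fold (limma adjusted p = 5.41e-04), and 0.63 ± 0.16 (3 and 3 arrays), or 1.55-fold, in old mice (adjusted p = 0.00692). With age the difference was -0.10 ± 0.15 in HSC and -0.04 ± 0.15 in GMP, with 95% intervals from -0.40 to 0.21 and from -0.36 to 0.28.

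Gabarapl1, of the GABARAP branch of the Atg8 family, showed the widest gap between the cell types among the 8 genes. It stood at 10.34, 10.44, 10.26, 9.49 and 10.19 log2 on the young HSC arrays and at 9.82, 9.44 and 10.15 on the old HSC arrays. On the young GMP arrays it stood at 8.89, 8.88, 8.71 and 8.37, and on the old GMP arrays at 8.65, 8.49 and 8.66. The cell types did not overlap at either age, and young HSC replicate 4 lay among the old HSC arrays. The log2 difference between HSC and GMP was 1.43 ± 0.17 in young mice, 2.70-fold (adjusted p = 3.21e-06), and 1.20 ± 0.21 in old mice, 2.31-fold (adjusted p = 2.82e-04).

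Map1lc3b encodes LC3B, the protein whose membrane-bound form is the usual marker of autophagosomes. Its values were 11.25, 11.30, 11.24, 10.17 and 11.10 log2 on the young HSC arrays and 10.44, 10.47 and 10.93 on the old HSC arrays. In GMP they were 10.27, 10.22, 10.27 and 9.92 on the young arrays and 9.97, 9.86 and 10.06 on the old arrays. Young HSC replicate 4 was the only HSC array within the range of the young GMP arrays. The difference was 0.84 ± 0.19 log2 in young mice, 1.80-fold (adjusted p = 0.00175), and 0.66 ± 0.23 in old mice, 1.58-fold (adjusted p = 0.0426). The old-mouse call was lost without any 1 of the 6 old arrays, where the difference was 0.50 to 0.74 (adjusted p from 0.0535 to 0.174), and with the mean of both probe sets of the gene (0.69, 0.194). It was kept with quantile normalization (0.96, adjusted p = 8.22e-04), with the old groups alone (0.66, 0.00757), with the replicate block (0.00443) and without both young replicate 4 arrays (6.05e-04). The dimmer probe set, which ran from 6.54 to 9.85 log2 over the arrays, had, in a fit of every probe set, a difference of 1.20 ± 0.44 in young mice that was not called (adjusted p = 0.0534).

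Sqstm1 encodes p62, a receptor that carries ubiquitinated cargo into autophagosomes and is itself degraded there. Its values were 9.38, 9.57, 9.46, 8.92 and 9.41 log2 on the young HSC arrays, 8.56, 8.98 and 8.88 on the old HSC arrays, 9.01, 8.83, 8.90 and 8.98 on the young GMP arrays, and 8.45, 8.66 and 8.74 on the old GMP arrays. Only young HSC replicate 4 among the young HSC arrays lay within the range of the young GMP arrays. Sqstm1 was 1.33-fold higher in young HSC than in young GMP (0.42 ± 0.13 log2, adjusted p = 0.0209), and the difference in old mice was 0.19 ± 0.16 (adjusted p = 0.492). The call in young mice was lost without young HSC replicate 2 or 3 (limma adjusted p = 0.0592 and 0.0501). It was also lost without young GMP replicate 2 or 3 (0.0688 and 0.0551). The difference in these fits was 0.36 to 0.41. With the 7 young arrays of high Xist left out, each young group was 1 array, and the difference was 0.37.

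Atg12 went the other way from the Atg8 genes. Its transcript, which encodes a ubiquitin-like protein, stood at 8.65, 8.74, 8.57, 8.48 and 8.51 log2 on the young HSC arrays and at 8.62, 8.51 and 8.50 on the old HSC arrays. In GMP the values were 9.22, 9.47, 9.15 and 9.04 on the young arrays and 9.03, 9.0 and 9.17 on the old arrays. All HSC values lay below all GMP values. Atg12 was 1.55-fold lower in young HSC (-0.63 ± 0.10 log2, limma adjusted p = 9.86e-05) and 1.44-fold lower in old HSC (-0.52 ± 0.12, adjusted p = 0.00413) than in GMP of the same age. Genes of like brightness had a median of -0.02 in young and -0.24 in old mice. After quantile normalization the Atg12 difference was -0.65 ± 0.08 in young and -0.37 ± 0.10 in old mice, and both were called (limma adjusted p = 1.17e-05 and 0.0129). With the 7 young arrays of high Xist left out, so that each young group was 1 array assumed to vary like the others, the difference in young mice was -0.57 ± 0.21 and not called (adjusted p = 0.137).

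Atg7 was the flattest of the 8 genes. Its group means were 8.46 ± 0.14 log2 in young HSC (SD, n = 5), 8.44 ± 0.02 in old HSC (n = 3), 8.49 ± 0.12 in young GMP (n = 4) and 8.48 ± 0.07 in old GMP (n = 3), and every pair of groups overlapped. The 95% intervals of its differences ran from -0.24 to 0.21 for age in HSC, -0.24 to 0.23 for age in GMP, -0.23 to 0.18 for cell type in young mice and -0.29 to 0.21 in old mice.

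**Figure D2:**
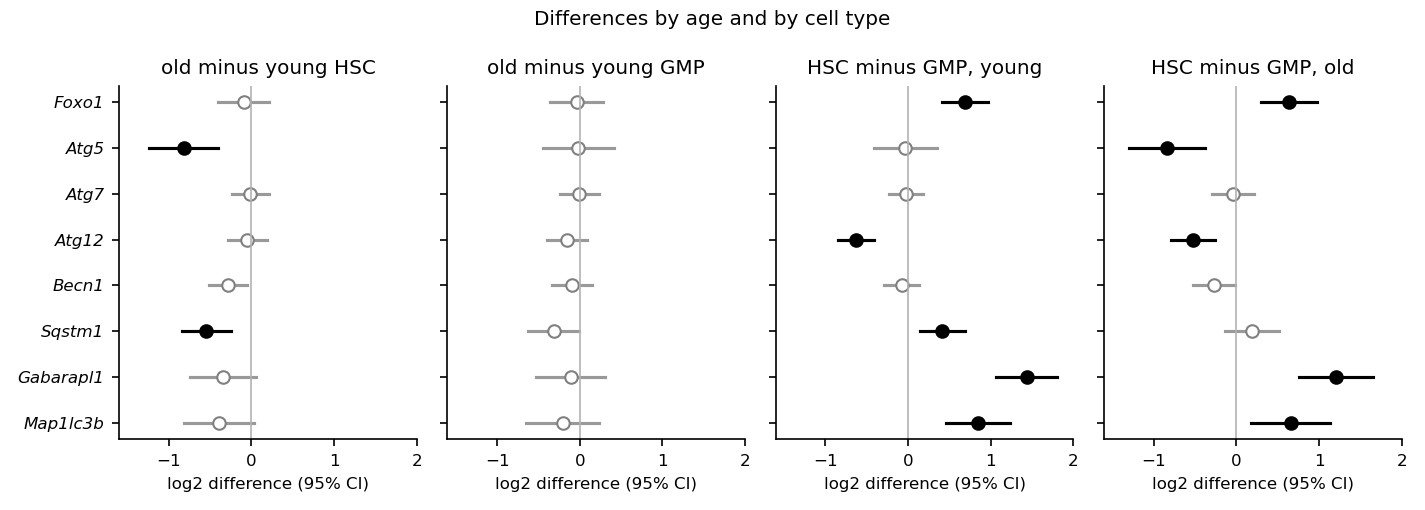
Log2 difference (horizontal axis) with its 95% confidence interval for each gene (vertical axis) in the comparisons of age within each cell type and of cell type within each age; filled points passed an adjusted p of 0.05. In HSC, Atg5 at -0.82 and Sqstm1 at -0.55 are the filled points of the age panel, and 0 points are filled for age in GMP.

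The age comparison in HSC asked whether the FoxO and autophagy genes differ between old and young stem cells. Atg5 and Sqstm1 fell in old HSC, by 1.77-fold and 1.46-fold, and the other 6 genes were not called. These 2 of 8 genes compare with 11.5% of all genes called, 9.22% of all genes lower and 2.25% higher, and 0 of the 8 were called higher. The log2 differences of all 8 genes were below 0, with a median of -0.31, against a median of 0.03 over all genes. This depended on the scaling: after quantile normalization 5 of the 8 were below 0, with Foxo1, Atg7 and Atg12 above it and a median of -0.06, and with the interquartile range of the arrays as a covariate 4 of the 8 were below 0, with a median of 0.02. The spread of values within an array was narrower on the old HSC arrays, and the median difference was below 0 among brighter genes: in the group of brightness that holds Sqstm1, Gabarapl1 and Atg12, the ninth of 10 equal groups by mean level, the median difference was -0.30. In bulk samples, fewer cells with a transcript and less transcript per cell cannot be told apart.

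Atg5, whose product joins ATG12, stood at 8.04, 8.51, 8.71, 7.66 and 8.44 log2 on the young HSC arrays and at 7.59, 7.20 and 7.56 on the old HSC arrays. In GMP it stood at 8.46, 8.43, 8.22 and 8.11 on the young arrays and at 8.39, 7.91 and 8.57 on the old arrays. Old HSC lay below every other array, with young HSC replicate 4 the nearest, and the other 3 groups overlapped with each other. The difference with age in HSC was -0.82 ± 0.20 log2 (limma adjusted p = 0.0161), where genes of like brightness, the seventh of 10 groups, had a median of -0.11. In old mice Atg5 was 1.79-fold lower in HSC than in GMP (-0.84 ± 0.22, adjusted p = 0.00854). The age call was kept after quantile normalization but lost without old HSC replicate 1 (-0.89, limma adjusted p = 0.0525) or 2 (-0.70, 0.109). It was also lost with array interquartile range added as a covariate (-0.40 ± 0.21, adjusted p = 0.536). Without the 7 young arrays of high Xist, which left 1 young HSC array, the difference was -0.59. The old cell type call was lost without old GMP replicate 3 (-0.70, adjusted p = 0.0580) or old HSC replicate 2 (-0.71, 0.0509).

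The Sqstm1 difference with age in HSC was -0.55 ± 0.14 log2 (adjusted p = 0.0209), and the groups overlapped through young HSC replicate 4, which at 8.92 lay below old HSC replicate 2 at 8.98. The call was lost at a near-equal difference in a fit of the HSC arrays alone (-0.55 ± 0.16, limma adjusted p = 0.0636) and without young HSC replicate 2 (-0.49, 0.0544) or 3 (-0.52, 0.0528). It was lost at a smaller difference without old HSC replicate 1 (-0.42, 0.121) and with the interquartile range in the model (-0.39, 0.421). After quantile normalization the difference was -0.29 ± 0.13 (limma adjusted p = 0.184). Without the 7 young arrays of high Xist, which left 1 young HSC array, it was -0.58. In GMP the young and old values of Sqstm1 did not overlap, with a difference of -0.32 ± 0.15 that did not pass the test (unadjusted p = 0.0430, adjusted p = 1.00).

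Gabarapl1 and Map1lc3b were not called with age in HSC, and the call depended on the setting. Their differences with age in HSC were -0.34 ± 0.19 and -0.40 ± 0.20 log2 (adjusted p = 0.222 and 0.182). Without young HSC replicate 4 they were -0.50 ± 0.15 and -0.61 ± 0.13, and both were called (adjusted p = 0.0202 and 0.00272). The replicate block, which groups same-numbered arrays of both ages, also called both genes (-0.49 and -0.56, limma adjusted p = 0.0216 and 0.0129). So did the mean of Y-linked genes as a covariate (-0.54 and -0.62, adjusted p = 0.0143 and 0.00614). Replicates 4 and 5 are young only, and the Y-linked mean was lowest on the young replicate 4 arrays. Neither fit is therefore separate from leaving out young HSC replicate 4. With the interquartile range of the arrays in the model the differences of Gabarapl1 and Map1lc3b were 0.22 ± 0.13 and 0.15 ± 0.17, on the other side of 0 and not called. After quantile normalization they were -0.07 ± 0.14 and -0.12 ± 0.17. The part of array spread in the age differences was not tested beyond these alternatives. The dimmer probe set of Map1lc3b had a larger age difference in HSC, -1.01 ± 0.47, in the fit of every probe set. It was not called either (limma adjusted p = 0.156).

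Becn1 stood at 8.62, 8.63, 8.71, 8.59 and 8.65 log2 on the young HSC arrays and at 8.15, 8.53 and 8.41 on the old HSC arrays. The groups did not overlap, as for Atg5, which made 2 of 8 genes against 12.8% of all genes. The difference of -0.28 ± 0.11 was not called (limma unadjusted p = 0.0191, adjusted p = 0.0947). Genes of brightness like that of Becn1 had a median of -0.23. After quantile normalization the Becn1 difference was -0.06 ± 0.12, and with the interquartile range as a covariate it was -0.25 ± 0.13. Atg12 differed with age by -0.05 ± 0.11 log2 in HSC. Among the sort markers Cd34 and Flt3 (Flk2) were lower in old HSC, with differences of -1.03 ± 0.14 and -0.69 ± 0.12 log2; their part in the differences of the autophagy genes was not tested.

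**Figure D3:**
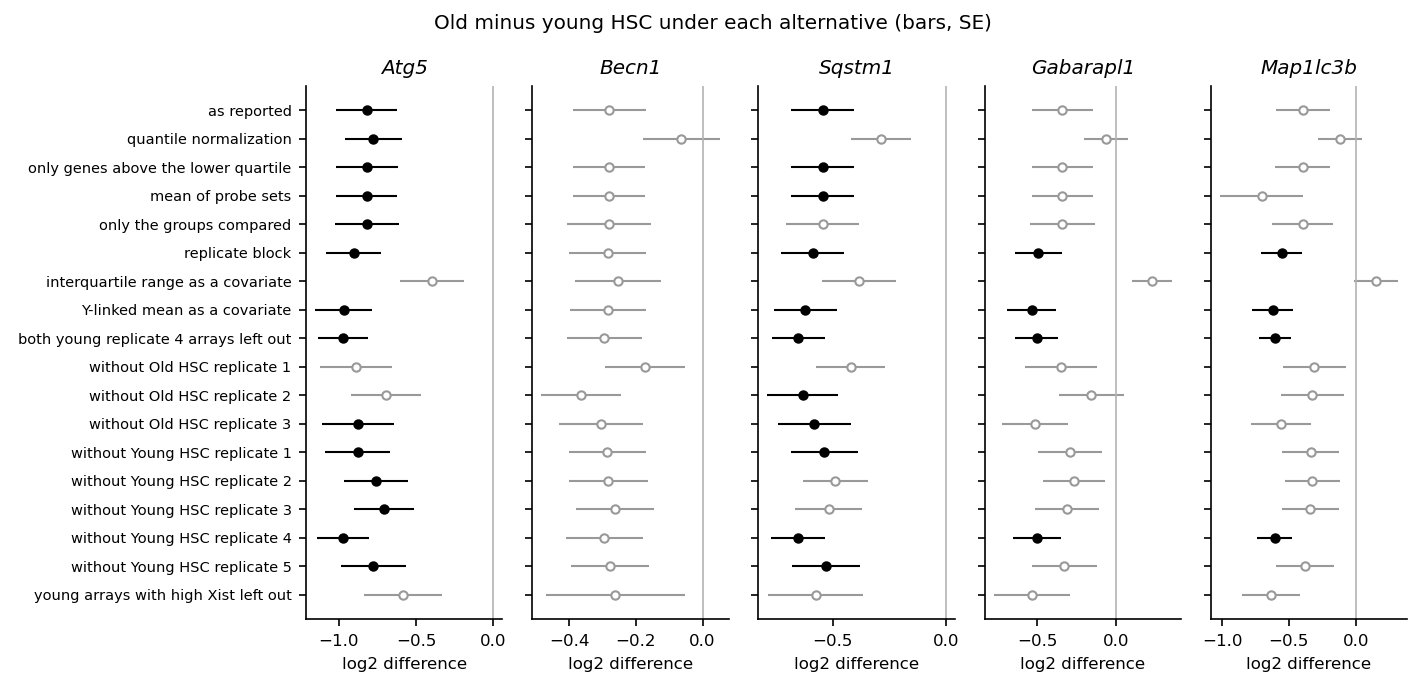
Log2 difference between old and young HSC (horizontal axis; bars show the SE) of 5 genes under the reported model and each alternative (vertical axis); filled points passed an adjusted p of 0.05. Atg5 and Sqstm1 lie below 0 in every line shown, and Gabarapl1 and Map1lc3b are filled where young HSC replicate 4 is left out and with the replicate block or the Y-linked covariate, and lie above 0 with the interquartile range as a covariate.

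The same comparison in GMP called 0 of the 8 genes and 0 of all 19296 genes (0% called; limma), and 870 genes had an unadjusted p under 0.05, among them 1 of the 8, Sqstm1. The log2 differences of the 8 genes ran from -0.32 for Sqstm1 to -0.01 for Atg7, with a median of -0.10 against -0.01 for all genes. Sqstm1 was the 1 gene of the 8 without overlap between old and young GMP, where 6.83% of all genes did not overlap. The test of whether the age difference itself differed between HSC and GMP called 0 of the 8 genes, and 18 of all genes (0.0933%, of which 0.0259% higher and 0.0674% lower). Its value nearest the threshold among the 8 was that of Atg5, -0.80 ± 0.29 log2 (unadjusted p = 0.0113, adjusted p = 0.345), so that the fall of Atg5 in HSC was not shown to differ from the -0.02 ± 0.21 in GMP.

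By order of group means, Foxo1, Gabarapl1 and Map1lc3b ran from young HSC through old HSC and young GMP to old GMP. For Foxo1 and Gabarapl1 the neighbours that did not overlap were old HSC and young GMP, and the same held for Map1lc3b. Sqstm1 ran from young HSC at 9.35 ± 0.25 through young GMP at 8.93 ± 0.08 and old HSC at 8.80 ± 0.22 to old GMP at 8.62 ± 0.15, and each neighbour overlapped with the next. Atg12 had the opposite order of cell types, from young GMP at 9.22 ± 0.18 and old GMP at 9.06 ± 0.09 to young HSC at 8.59 ± 0.11 and old HSC at 8.54 ± 0.06, with a gap between old GMP and young HSC only. Atg5 and Becn1 were alike in that old HSC had the lowest mean, at 7.45 ± 0.21 and 8.36 ± 0.20; old HSC was separate from the next group, young HSC, for Atg5, and overlapped with the next, old GMP, for Becn1.

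Over the 15 arrays the gene most like Gabarapl1 was Ubl7, with a Pearson r of 0.988, followed by Aplp2 at 0.987; for Map1lc3b they were Pdlim1 at 0.979 and Tspan4 at 0.968. For Foxo1 they were Edar and Capn5 at 0.962 and 0.959, for Atg12 Rasgrp2 and Clec4e at 0.963 and 0.959, and for Sqstm1 Abt1 and Pgrmc1 at 0.936 and 0.928. For Atg5 they were Pradc1 and Eif4e2 at 0.963 and 0.958, for Becn1 A430005L14Rik and Ak4 at 0.919 and 0.916, and for Atg7 Atxn2l and Fkbp15 at 0.729 and 0.711. These genes share the arrays and their normalization, and r over all arrays also takes in differences between the groups. After the group means were removed, r was 0.929 and 0.951 for the genes most like Gabarapl1 and 0.693 and 0.726 for those most like Atg12. For the other members it ran from 0.742 (Atxn2l with Atg7) to 0.947 (Tspan4 with Map1lc3b).

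The other genes of the pathway were taken from lists of 112 genes, of which 109 were analysed. In young HSC against young GMP 29 of them were higher and 4 lower, or 26.6% and 3.67%, beside 13.6% and 10.9% of all genes; their median difference was 0.13 log2 against -0.05 for all genes. Of 20 genes reported as FoxO targets 7 were higher in young HSC. They included Txnip, which encodes the thioredoxin-interacting protein, 5.12-fold (2.36 ± 0.12 log2, adjusted p = 1.59e-11), the stress-response sestrin genes Sesn3 and Sesn1, 2.74-fold and 2.17-fold, and the transcription factor gene Klf6, 1.80-fold; 1 was lower, the stress gene Gadd45a, 1.67-fold. Txnip, Sesn3 and Sesn1 were also higher in old HSC, by 4.32-fold, 2.36-fold and 2.09-fold. Their age differences in HSC were -0.14 ± 0.13, -0.16 ± 0.19 and -0.17 ± 0.15 log2, and none of these was called.

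Among other Atg8 family genes Gabarapl2 and Map1lc3a were higher in young HSC, by 1.59-fold and 1.56-fold, while Gabarap had a difference of 0.11 ± 0.11 log2. Of 14 genes of the ULK kinase and mTORC1, which start and restrain autophagy, 4 were higher: the kinase genes Ulk1 and Ulk2, 1.66-fold and 1.46-fold, the mTORC1 inhibitor gene Tsc1, 1.29-fold, and Ambra1, 1.26-fold. Mtor itself differed by -0.08 ± 0.10. Of 9 cargo receptor genes 4 were higher, such as Wdfy3, which links aggregates to autophagosomes, 1.51-fold, and Nbr1, a receptor related to p62, 1.35-fold. Beside these small lists, 13.6% of all genes were called higher and 10.9% lower in young HSC. Of 9 genes of the KEAP1-NRF2 system, which p62 activates by binding KEAP1, 4 were higher: the detoxifying enzyme genes Nqo1, 1.91-fold, Srxn1, 1.71-fold, Gclm, 1.58-fold, and Hmox1, 1.30-fold.

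Of 8 genes of the conjugation machinery Atg4c, a protease that processes Atg8 proteins, was 1.46-fold higher and Atg3, the enzyme that transfers them to lipid, 1.39-fold lower in young HSC. Of 12 genes of the class III PI3-kinase step 1 was higher, its autophagy subunit gene Atg14, 1.47-fold. Of 14 genes of fusion and the lysosome membrane 3 were higher, such as Vps39, 1.45-fold, and Stx17, 1.38-fold, and 1 was lower, Lamp1, 1.43-fold. Among 18 other FoxO genes and upstream regulators 3 were higher, the AMPK subunit gene Prkaa2, 2.06-fold, the PI3-kinase subunit gene Pik3r1, 1.96-fold, and Akt2, 1.46-fold, and the PI3-kinase gene Pik3cb was 1.52-fold lower. Foxo4 and Foxo6 differed by -0.15 ± 0.11 and -0.01 ± 0.11 log2. Of 3 TFEB family genes 0 were called, and Tfeb differed by 0.04 ± 0.12. Of all genes 13.6% were called higher and 10.9% lower, so counts such as 1 of 8 or 1 of 12 lie near those shares.

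In old mice 15 of the 109 genes were higher and 12 lower in HSC than in GMP, or 13.8% and 11%, beside 9.25% and 13% of all genes; without old HSC replicate 1 the number called was 16. Ulk1 and Ulk2 were 1.37-fold and 1.41-fold higher in old HSC. Atg3, Lamp1 and Rheb, the activator of mTORC1, were 1.70-fold, 1.98-fold and 1.83-fold lower. Among all genes the median of this difference was -0.24 and -0.31 log2 in the brightest groups, 9 and 10 of 10. The part of this in the counts and values of the pathway genes was not tested.

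**Figure D4:**
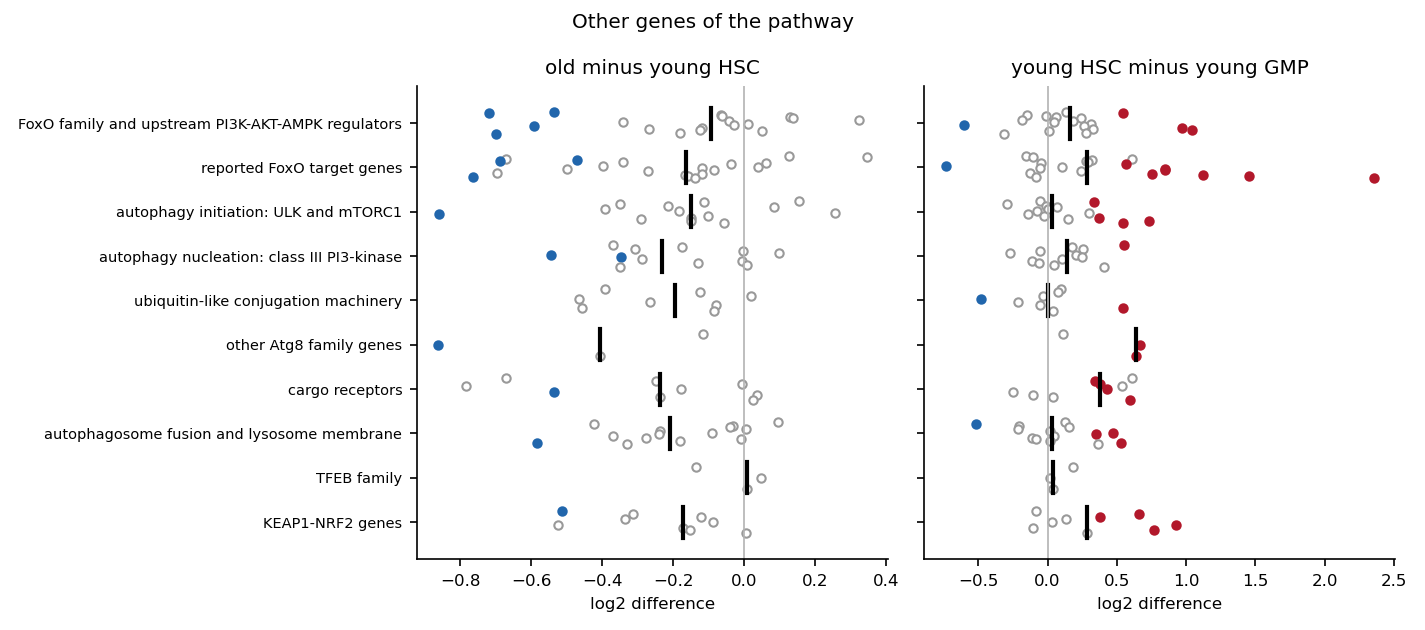
Log2 difference (horizontal axis) of each other gene of the pathway in 10 lists (vertical axis), for old against young HSC and for young HSC against young GMP; blue and red points passed an adjusted p of 0.05 as lower and higher, open points did not, and black bars are list medians. All 14 called genes of the age panel are lower in old HSC, and in the cell type panel 29 are higher and 4 lower in HSC.

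With age in HSC 14 of the 109 genes fell and 0 rose, or 12.8% beside 9.22% of all genes called lower, with a median of -0.16 log2. The Atg8 gene Gabarapl2 fell 1.82-fold (-0.86 ± 0.22 log2, adjusted p = 0.0185) and Rheb 1.81-fold. Of the class III PI3-kinase genes the catalytic subunit gene Pik3c3 and its partner Pik3r4 fell, 1.46-fold and 1.27-fold, and of the receptors Ncoa4, the receptor for ferritin, fell 1.45-fold. Upstream of FoxO the kinase genes Akt2, Stk11 (LKB1), Pik3cd and Akt1 fell, by 1.65-fold, 1.62-fold, 1.51-fold and 1.45-fold. Of the reported FoxO targets Sod2, the mitochondrial superoxide dismutase gene, fell 1.70-fold, Ccng2 1.61-fold and the catalase gene Cat 1.39-fold. Vps39 and Gclc, a glutathione synthesis gene, fell 1.5-fold and 1.43-fold, while Ulk1, Mtor and Tfeb had differences of -0.15 ± 0.12, -0.18 ± 0.11 and 0.01 ± 0.13. The number called was 0 without old HSC replicate 2, 2 without replicate 1, 7 and 9 without young HSC replicates 2 and 3, and 35 without young HSC replicate 4; with the interquartile range as a covariate it was 0, and with quantile normalization 8. In GMP 0 of the 109 were called with age, and 0 in the test of the difference between both age effects.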

How the data were processed

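Cells of each group were hybridised to Affymetrix arrays, 1 column of values per sample. The authors deposited log2 expression values for 23309 probe sets, and RMA and the packages affy and limma are listed, with no version, in the submitters' processing notes; that the scale is log2 was read from the values, and filters and build are not given in the sources used here. Of the probe sets 20728 had 1 symbol, 1174 several and 1407 none; only the first kind was used, 20685 were matched to the mouse gene table by Entrez ID with 0 symbols changed, and for the 804 genes with several the brightest over the 15 arrays was taken. Genes were tested with limma 3.58.1 in R 4.3.3: 1 mean per group over all 15 arrays, default empirical Bayes, Benjamini-Hochberg over 19296 genes, called at an adjusted p under 0.05. The script was tested on simulated data. The number of arrays limits the precision, and 0 arrays were identical.

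The genes, lists and tests were chosen with earlier results of these data known. In the lists up to 4 called genes by size were named, or single genes behind counts of 1; Gadd45a, Gabarap, Foxo4, Foxo6, Cd34 and Flt3, and the values of Txnip, Sesn3 and Sesn1 with age, were chosen after their values were seen; genes most like a member were the 2 with the highest r among genes of at least median level. Same-numbered young HSC and GMP arrays deviated together (r from 0.16 to 0.52 over genes), so the numbers were taken to pair them. For same-numbered old HSC and GMP arrays r was 0.05, 0.23 and 0.42, all above 0, and they were not taken as paired. Nor were same-numbered old and young arrays, where r ran from -0.24 to 0.15. The reported model uses no pairing. Alternatives were quantile normalization, a filter on dim genes, the mean of probe sets, the compared groups alone, a replicate block, 2 covariates and arrays left out. Protein sequences were not used here.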

Additional observations from a re-analysis of the deposited data

Results flagged for a closer look

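Among 16 pairs of a gene and a young group examined for a single distant array, 3 held one. Chance gives about 1 in 20 for a single pair, but the pairs share arrays, so the 3 cannot be set against that rate. Gabarapl1 on young HSC replicate 4 stood at 9.49 log2, where the other 4 young HSC arrays ran from 10.19 to 10.44. Map1lc3b on the same array stood at 10.17, against 11.10 to 11.30 on the others. Map1lc3b on young GMP replicate 4 stood at 9.92, against 10.22 to 10.27 on the other 3 young GMP arrays. Both arrays had the narrowest interquartile range of their groups, 2.21 and 2.13 log2, the highest Xist, 11.51 and 10.95, and the lowest mean of Y-linked genes, 4.94 and 5.20; the part of these in these values was not tested.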

How the results depend on the processing

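With age in HSC, where 2213 genes and 2 of the 8 were called, the counts were 1310 and 1 after quantile normalization, 871 and 1 with the HSC arrays alone, 105 and 0 with the interquartile range as a covariate, 6588 and 4 with the mean of Y-linked genes as a covariate, 6183 and 4 without both young replicate 4 arrays, and 22 and 0 without the 7 young arrays of high Xist. Leaving out 1 array gave 345 (without old HSC replicate 2) to 5312 (without young HSC replicate 4) genes and 0 (without old HSC replicate 1) to 4 (without young HSC replicate 4) of the 8. The replicate block sets same-numbered arrays of both ages together, although the numbers were not taken to pair the ages. With it 6280 genes and 4 of the 8 were called in HSC, 232 and 0 in GMP, and 41 and 0 for the difference between the age effects. For the young cell types the numbers were taken to pair the arrays, from their values and not from a label. There 5667 genes and 5 of the 8 were called with the replicate block. With the block on the young arrays only, an alternative chosen after seeing the data, the counts were 5850 and 5. With age in GMP the 0 genes became 224 with the Y-linked covariate, 188 without both replicate 4 arrays, 3 without the high-Xist arrays, and 0 to 12 (without young GMP replicate 4) leaving out 1 array. The 18 genes of the difference between the age effects became 5 with the interquartile range, 32 with the Y-linked covariate, 145 without both replicate 4 arrays, 0 without the high-Xist arrays, and 1 (without old GMP replicate 2) to 192 (without young HSC replicate 4) leaving out 1 array. Without the high-Xist arrays, also chosen after seeing the data, the young cell type counts were 1770 and 3 of the 8. In old mice 3 to 4 of the 8 were called when 1 array was left out, and 4 with the mean of probe sets. Of 720 values of the 8 genes under alternatives, 686 stayed on the same side of the threshold, but 508 of these were called in neither fit. Another 8 gained a call, 26 lost it and 0 called values turned sign, though 53 of the 508 did. The causes were not tested. Few arrays per group limit what can be detected, and without the high-Xist arrays each young group was 1 array.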
